A study of Homo sapiens with 15 samples.

Results

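Mediator and the coactivators it works with were followed as a set of 39 genes, out of 58721 annotated genes in the deposited tables. The set was given as a list of symbols, chosen as contacts of acidic activation domains, and the symbols were mapped to gene identifiers with release 29 of the GENCODE annotation of hg38. It holds 32 subunits of Mediator and its kinase module, the acetyltransferases EP300, CREBBP, KAT2A and KAT2B, the bromodomain proteins BRD2 and BRD3, and TRRAP. All 39 passed the filter on low counts, with 47 counts as the lowest value of any member in any library.

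RNA sequencing had been done on 5 lines of MelJuSo cells, which come from a human melanoma, in 3 libraries (A, B and C) each. All 5 lines expressed a nuclease-dead Cas12a (dCas12a) with a 5xALFA tag and a nanobody that binds the tag. In the VP64 line with guides and the p65 line with guides, dCas12a was fused to the activation domain VP64, the nanobody carried a further VP64 or the p65 activation domain, and a cassette of 3 guides aimed dCas12a at CD4. The VP64 and p65 lines without guides had the same proteins and no guide cassette. The line without an activation domain had dCas12a with neither VP64 nor guides, and the nanobody alone. The labels do not say whether a line is a clone or a pool, or whether A, B and C were separate cultures. P-values therefore measure the spread between these libraries, which may be technical.

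Mediator is the large complex that relays signals from DNA-bound activators to RNA polymerase II at promoters. Its head and middle modules contact the polymerase, the tail is the main landing site for activators, MED14 runs through the complex as a scaffold, and a dissociable kinase module of CDK8 or CDK19, cyclin C, MED12 and MED13 regulates the contact with the polymerase. VP16, the viral domain from which VP64 is built, is known to bind MED25, and both VP16 and p65 are known to recruit the histone acetyltransferases CREBBP and EP300. TRRAP is an activator-binding subunit of the SAGA and TIP60 acetyltransferase complexes, and BET proteins read acetylated histones.

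Libraries held 15643705 to 23072512 expected counts, and 19624 to 20588 genes had a count. CD4, the guides' target, had 924 ± 27.0 TPM in the VP64 line with guides and 4.24 ± 0.397 TPM in the VP64 line without (SD, n = 3). With p65 it had 1002 ± 56.1 TPM with guides and 5.31 ± 0.382 TPM without, and the line without an activation domain had 1.57 ± 0.906 TPM (SD, n = 3). Melanoma markers (12 genes) summed to 1122 to 1303 TPM with guides and 851 to 934 TPM with an activation domain and no guides. They summed to 738 to 754 TPM without an activation domain, so the sum moved with the groups. MCAM alone had 397 to 773 TPM and SOX10 122 to 237 TPM, while MITF had 2.88 to 4.39 TPM. None of the 12 was at 0 in every library, but 1, MLANA, was under 1 TPM in every library. The part of these markers in the results below was not tested. In bulk RNA, fewer cells of a type and less RNA per cell cannot be told apart. Of 6 T cell markers, 3 were at 0 in every library, and the 6 summed to at most 2.71 TPM. Of 5 myeloid markers none was at 0, and they summed to 6.76 to 15.1 TPM in the 4 activator lines and 18.4 to 25.0 TPM without an activation domain. Of 4 fibroblast markers none was at 0 in every library, but 2 were under 1 TPM in every library. The 4 summed to 9.45 to 10.8 TPM in the p65 line with guides and 2.1 to 7.6 TPM in the others. COL1A1 alone had 1.62 to 9.62 TPM. Of 4 epithelial markers none was at 0 in every library, but 1 was under 1 TPM in every library. These epithelial markers summed to 2.09 to 4.41 TPM in the 4 activator lines and 2.4 to 6.8 TPM without an activation domain. Of 4 endothelial markers none was at 0 in every library, but 3 were under 1 TPM in every library. The 4 summed to 0.53 to 1.41 TPM in the 4 activator lines and 2.09 to 2.46 TPM without an activation domain. The part of these lists in the results was not tested either.

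Every member was expressed, most of them at moderate level. Member means over the 15 libraries had a median of 19.7 TPM, against 12.0 TPM for all tested genes. BRD2, which binds acetylated histone tails and helps polymerase pass through chromatin, was the most abundant. It had 96.6, 99.6 and 105 TPM in the VP64 line with guides, against 118, 116 and 117 TPM in the VP64 line without. It had 107, 95.5 and 108 TPM in the p65 line with guides, against 112, 119 and 120 TPM without, and 122, 107 and 127 TPM in the line without an activation domain. MED10, a small middle-module subunit (mean 84.4 TPM), and MED15, a tail subunit that binds activators (80.2 TPM), came next. EP300, the acetyltransferase p300, was the least abundant, with 1.65, 2.14 and 2.28 TPM in the VP64 line with guides and 1.78, 4.34 and 4.52 TPM in the VP64 line without. It had 2.70, 3.48 and 1.76 TPM in the p65 line with guides, 3.75, 2.85 and 2.30 TPM in the p65 line without, and 2.57, 4.85 and 3.29 TPM without an activation domain. On this scale the 2 groups of each guide pair overlapped, while the VP64 line with guides lay below both the p65 line without guides and the line without an activation domain. Its deposited effective length, the mean length over which reads of the gene can start, differed by up to 2.48 times between libraries, and TPM divides by it. MED28 (2.2 times), MED12 (1.95 times) and BRD3 (1.51 times) also varied over 1.5 times. Within groups the median coefficient of variation was 7.27% on the TPM scale and 5.1% on the CPM scale (counts scaled to library size), so groups are compared below on CPM and genes with each other on TPM.

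**Figure D1:**
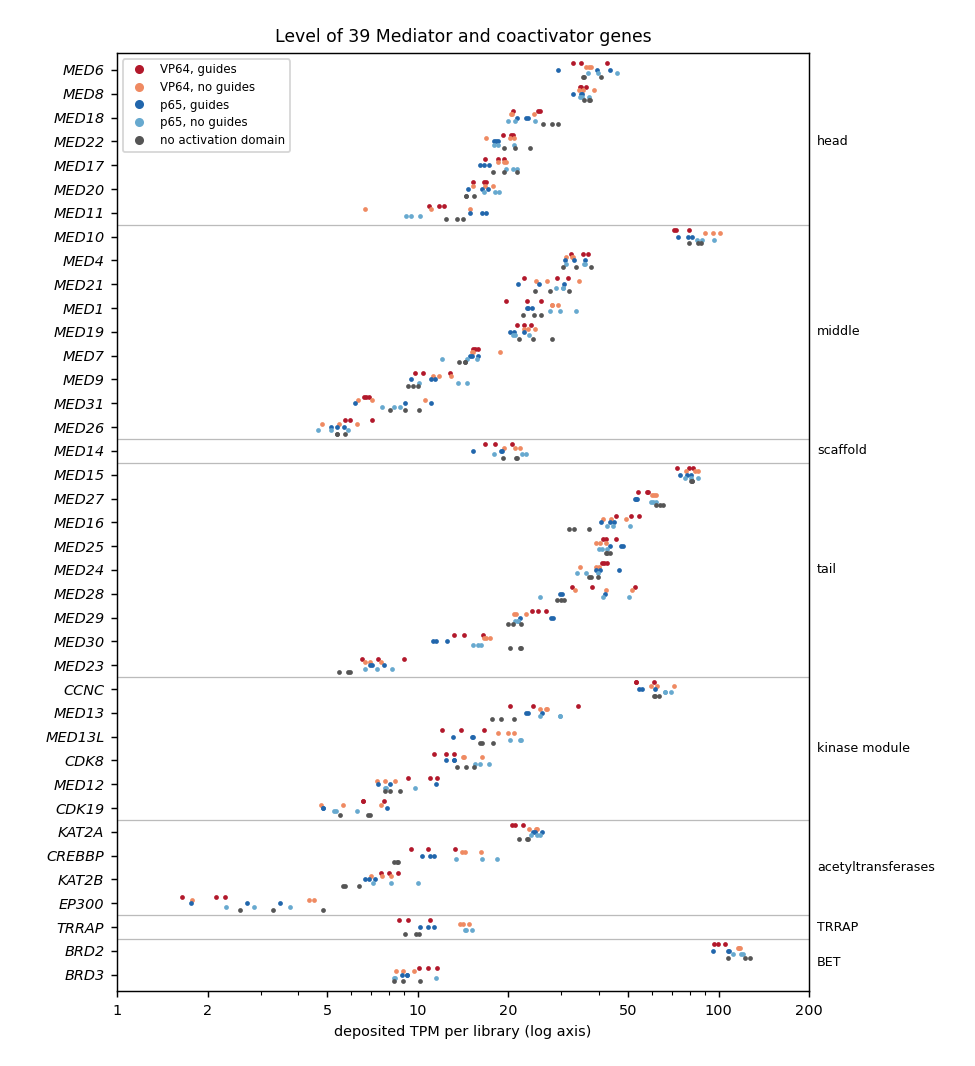
Deposited TPM of the 39 members in each of the 15 libraries (log axis), grouped by role, with lines coloured by group. BRD2 lies at 95.5 to 127 TPM and EP300 at 1.65 to 4.85 TPM.

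Sums over the complex add different genes, so they are given on TPM. For both sets below, the group mean was lower with guides than without in each pair of lines. For the kinase module with VP64 the libraries of the pair overlapped. The 26 Mediator subunits outside the kinase module summed to 760 ± 16.2 TPM in the VP64 line with guides, against 786 ± 3.08 TPM without. They summed to 742 ± 2.44 TPM in the p65 line with guides, against 782 ± 6.63 TPM without, and to 762 ± 17.3 TPM without an activation domain (SD, n = 3). The 6 kinase-module genes summed to 126 ± 7.85 TPM in the VP64 line with guides against 139 ± 7.38 TPM without, and to 123 ± 2.45 TPM in the p65 line with guides against 147 ± 3.0 TPM without. The line without an activation domain had 127 ± 2.86 TPM for these 6. No test was made on the sums.

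Guides against no guides compares a line that holds the activator and the CD4 guide cassette with a line that holds the activator alone. Each is 1 line, so the cassette and other differences between lines cannot be told apart. With VP64, 12 of 39 members fell and 2 rose, where a gene is said to rise or fall when its adjusted p in edgeR is under 0.05. That is 30.8% lower and 5.13% higher, against 21.3% of all 14961 tested genes lower and 19.3% higher. With p65, 15 of 39 fell and 2 rose (38.5% and 5.13%), against 20.2% of all genes lower and 18.7% higher. Among the 10689 genes at least as abundant as the lowest member, 28.2% were lower and 22.9% higher with VP64, and 26.9% lower and 22.6% higher with p65. The share of members that fell with VP64 was thus near that of well-expressed genes. The median log2 fold change of members was -0.10 with VP64 and -0.11 with p65, against 0.00 and -0.01 for all genes. No member changed 2-fold in any comparison. The few rises varied with the setting. With VP64 there were 5 without replicate A of the line with guides or without replicate C of the line without an activation domain, 4 without replicate B of that control line or replicate A of the p65 line without guides, and 1 without replicate B of the VP64 line with guides. Over all 23 alternatives tried, 8 to 12 members fell and 0 to 6 rose with VP64, and 8 to 15 fell and 1 to 4 rose with p65. The 15 falls with p65 became 10, and the 2 rises 1, without replicate B of that line with guides. The rises became 1 without its replicate A and 4 without its replicate C.

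The same 11 members fell in both pairs of lines: TRRAP, CREBBP, BRD2, the kinase-module genes MED13, MED13L, CDK8 and CCNC, the middle subunits MED1 and MED10, the scaffold MED14, and MED28. None rose in both. The share of all genes that fell in both was not counted, so no background stands beside these 11. Activation domain against none compares the VP64 or p65 line without guides with the line without an activation domain. The p65 line also holds dCas12a-VP64, so p65 is not compared alone. Each condition is 1 line, so the domain and other differences between lines cannot be told apart. In this comparison 9 members rose and 3 fell with VP64, against 23.6% of all genes higher and 24.0% lower. With p65, 11 rose and 5 fell, against 24.7% of all genes higher and 24.9% lower. Among the 10689 genes at least as abundant as the lowest member, 29.9% rose and 28.2% fell with VP64, and 31.5% and 28.4% with p65. The 23.1% and 28.2% of members that rose are near the shares of all genes and lower than those of the 10689. The 7.69% and 12.8% of members that fell are below both. With VP64 those that rose were MED1, MED13, MED13L, MED16, MED20, MED23, CREBBP, KAT2B and TRRAP, and MED18, MED30 and BRD2 fell. With p65, MED9 and MED28 joined the first group, and MED11 and MED27 joined the second. The MED27 fall (-0.12) was lost in 16 of the 23 alternatives, among them DESeq2 size factors, the DESeq2 Wald test, the replicate block and the omission of any 1 of 9 libraries. The 5 falls with p65 became 2 or 3 when any 1 of 8 libraries was left out, and the 3 falls with VP64 became 5 without replicate B of the VP64 line without guides. The likeness of these lists is no result of its own, since both comparisons use the libraries without an activation domain. The lines without guides likewise enter both the guide contrasts and these, so the values of each contrast are given side by side for each member.

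**Figure D2:**
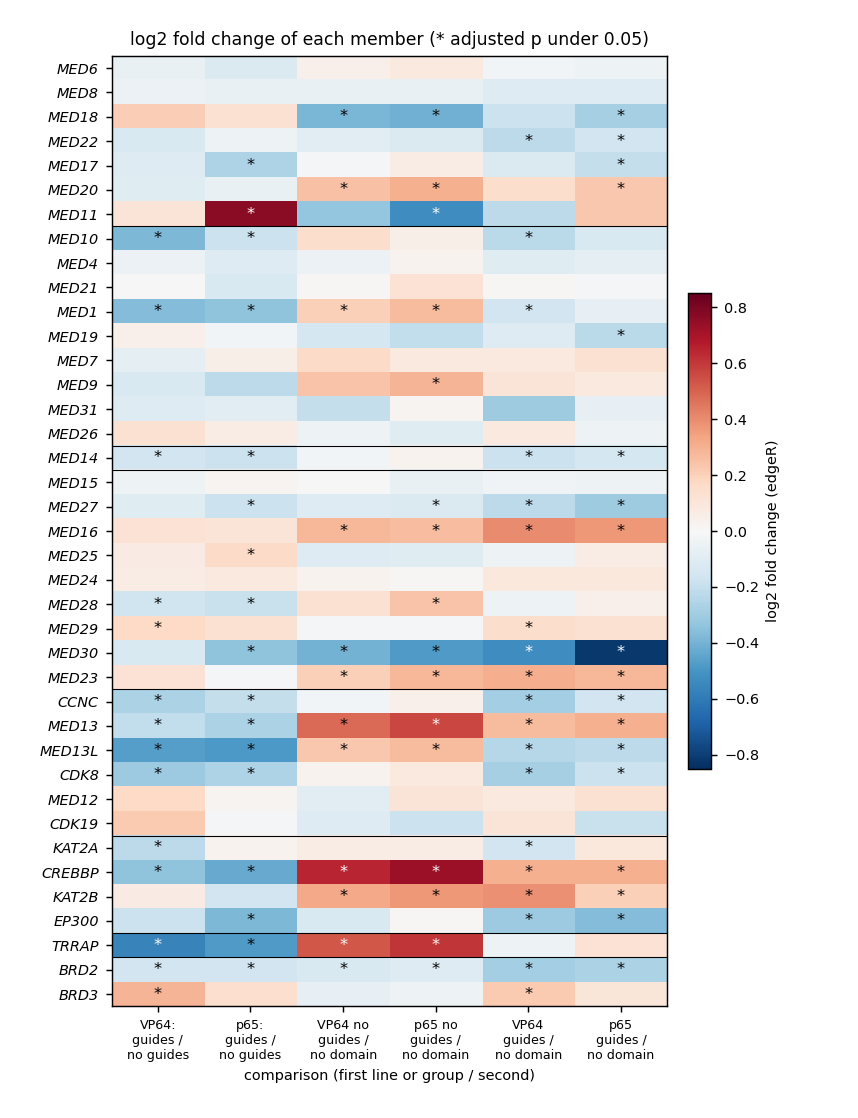
log2 fold change of each member (rows, grouped by role) in 6 comparisons (columns, first group over second), from blue (lower) to red (higher), with a star where the adjusted p is under 0.05. TRRAP, CREBBP, MED13, MED13L and MED1 are blue in both guide columns and red in both columns of lines without guides over the line without an activation domain.

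**Figure D3:**
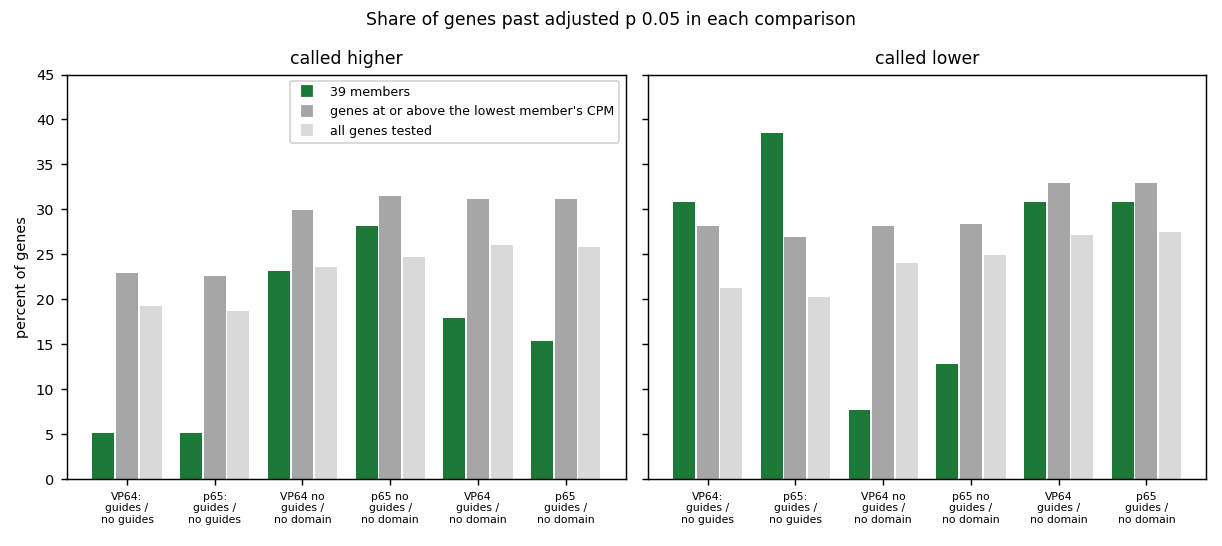
Percent of genes called higher (left) and lower (right) in 6 comparisons, for the 39 members, for 10689 genes at least as abundant as the lowest member, and for all 14961 tested genes. The members' bars for higher calls with guides stand at 5.13% (2 genes) in both pairs, a count that ranged over 0 to 6 with VP64 and 1 to 4 with p65 in the alternatives tried.

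In the middle module, 2 of 9 subunits fell in each guide comparison and none rose, near the 21.3% (VP64) and 20.2% (p65) of all genes that fell. MED1, the subunit through which nuclear receptors and many other activators contact Mediator (chr17:39404285-39451286, minus strand, hg38), had 68.0, 82.6 and 89.4 CPM in the VP64 line with guides, against 104, 105 and 102 CPM without. It had 85.1, 85.5 and 86.4 CPM in the p65 line with guides, against 112, 110 and 102 CPM without, and 92.8, 92.5 and 84.3 CPM without an activation domain. Libraries with guides were all below those without, in both pairs, and the lines without guides were all above the line without an activation domain. The log2 fold change with guides was -0.37 for VP64 (SE 0.0658, adjusted p = 9.96e-05) and -0.34 for p65 (SE 0.0648, adjusted p = 0.000254). Against no activation domain, the lines without guides differed by 0.20 with VP64 (SE 0.0645, adjusted p = 0.0122) and 0.27 with p65 (SE 0.0642, adjusted p = 0.00141). The first of these missed the threshold without replicate C of the line without an activation domain (0.17), with an effective-length offset (0.21) and on TPM (0.23).

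MED10, a small subunit needed for the integrity of the middle module, had 47.4, 44.9 and 50.2 CPM in the VP64 line with guides, against 61.8, 65.2 and 57.7 CPM without. It had 47.5, 51.4 and 53.3 CPM in the p65 line with guides, against 55.9, 54.5 and 62.1 CPM without, and 57.6, 53.3 and 55.9 CPM without an activation domain. The groups of each pair did not overlap. MED10 fell by 0.38 on the log2 scale with VP64 (SE 0.0631, adjusted p = 4.83e-05) and by 0.18 with p65 (SE 0.0622, adjusted p = 0.0231). The p65 call was lost without replicate A of that line with guides (-0.14), without replicate C of the line without guides (-0.12) and with an effective-length offset (-0.19). The other 7 middle subunits, MED4, MED7, MED9, MED19, MED21, MED26 and MED31, passed in neither guide comparison. MED31 shares 58.3% of its exonic bases with the antisense gene TXNDC17, which had a mean of 174 TPM against 8.16 TPM for MED31. The strandedness of the counting is not given, so their reads cannot be told apart. TXNDC17 had log2 fold changes of -0.24 with VP64 guides and -0.10 with p65 guides. MED9 rose in the p65 line without guides against no activation domain (0.29, SE 0.110, adjusted p = 0.0308), but its groups overlapped. The MED9 call was lost without p65 replicate B (0.21) or C (0.24), or without replicate A (0.29) or C (0.28) of the line without an activation domain.

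MED14, the backbone that joins head, middle and tail, had 82.3, 75.9 and 85.0 CPM in the VP64 line with guides, against 91.3, 89.4 and 90.8 CPM without. It had 85.2, 78.3 and 85.0 CPM in the p65 line with guides, against 94.1, 99.8 and 87.9 CPM without, and 95.7, 90.9 and 89.0 CPM without an activation domain. The libraries with guides were the lowest in each pair, by a narrow margin. The log2 fold change was -0.16 with VP64 (SE 0.0526, adjusted p = 0.0173) and -0.18 with p65 (SE 0.0519, adjusted p = 0.00829). The VP64 call was lost without replicate B with guides (-0.10) and without replicate A or C without guides (-0.15 each), and the p65 call without replicate B with guides (-0.14) or without (-0.13). Both calls were also lost with an effective-length offset (-0.18 and -0.22) and on TPM (-0.17 and -0.23).

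Of 7 head subunits, none passed in the VP64 guide comparison, while MED17 fell and MED11 rose in the p65 one. Of all genes, 21.3% were lower and 19.3% higher with VP64 guides, and 20.2% lower and 18.7% higher with p65 guides. MED17, a central head subunit that contacts the polymerase, fell by 0.26 (SE 0.0625, adjusted p = 0.00208) with p65 and had a log2 fold change of -0.11 with VP64 (adjusted p = 0.178). MED11, a small subunit at the base of the head, had 5.78, 6.69 and 6.26 CPM in the p65 line with guides, against 3.66, 3.43 and 3.87 CPM without. It had 4.38, 4.75 and 4.48 CPM in the VP64 line with guides, against 4.30, 5.78 and 2.52 CPM without, and 4.90, 5.65 and 5.35 CPM without an activation domain. The p65 groups stood apart, and the VP64 libraries without guides spread on both sides of those with guides. MED11 had the largest rise of any member with p65 guides (log2 fold change 0.77, SE 0.193, adjusted p = 0.00287). It also fell in the p65 line without guides against no activation domain (-0.53, SE 0.193, adjusted p = 0.0258), the largest fall of a member there. That fall was lost without replicate A (-0.53) or B (-0.49) of the p65 line, without replicate B (-0.48) or C (-0.52) of the line without an activation domain, with an effective-length offset (-0.50) and on TPM (-0.43). MED11 shares 36.9% of its exonic bases with antisense genes, mainly CXCL16. No source used here gives the strandedness of the counting, so their reads cannot be told apart. CXCL16 had log2 fold changes of 1.22 to 1.47 in the 4 activator lines against none, and 0.08 and 0.12 with VP64 and p65 guides.

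MED18 and MED20 form a movable jaw of the head, and the RNAs of the pair went opposite ways. MED18 fell against no activation domain in the VP64 line without guides (-0.39, SE 0.0866, adjusted p = 0.000768) and in the p65 line without guides (-0.41, SE 0.0862, adjusted p = 0.000378). MED20 rose by 0.25 (SE 0.0707, adjusted p = 0.00542) and 0.30 (SE 0.07, adjusted p = 0.00123) in the same lines. With an effective-length offset MED20 differed by 0.14 and 0.23 and passed in neither, and on TPM it differed by 0.15 with VP64 and did not pass.

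Of the tail and its neighbours (9 genes), 2 rose, 1 fell and 6 did not pass in the VP64 line without guides against no activation domain, and 3 rose and 2 fell in the p65 line. MED27 to MED30 are counted here, although they lie where head and tail meet and are assigned to either. In those comparisons 23.6% of all genes were higher and 24.0% lower with VP64, and 24.7% higher and 24.9% lower with p65. MED16, a tail subunit (chr19:867630-893218, minus strand, hg38), had 101, 93.7 and 86.3 CPM in the VP64 line with guides, against 90.5, 83.2 and 85.2 CPM without. It had 92.3, 94.0 and 88.9 CPM in the p65 line with guides, against 81.1, 83.9 and 89.1 CPM without, and 66.9, 72.0 and 73.5 CPM without an activation domain. All 12 libraries of the activator lines were above the 3 without an activation domain, and the guide pairs overlapped. Without guides the log2 fold change against no activation domain was 0.28 with VP64 (SE 0.055, adjusted p = 0.000203) and 0.26 with p65 (SE 0.0549, adjusted p = 0.00048). With guides it was 0.40 (SE 0.0553, adjusted p = 2.26e-06) and 0.37 (SE 0.055, adjusted p = 5.82e-06), the largest rise of any member in both.

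MED30, a subunit found in animals and not in yeast, moved the other way. It had 7.02, 7.13 and 8.40 CPM in the VP64 line with guides, against 8.24, 8.55 and 7.77 CPM without. It had 6.55, 5.98 and 5.82 CPM in the p65 line with guides, against 6.62, 8.37 and 8.23 CPM without, and 10.7, 10.7 and 11 CPM without an activation domain. All 12 activator libraries were below the 3 without a domain, and the p65 line with guides was lowest. Against no activation domain, MED30 had log2 fold changes of -0.53 with VP64 and guides (SE 0.113, adjusted p = 0.000454) and -0.82 with p65 and guides (SE 0.115, adjusted p = 2.61e-06), the largest fall of any member in each. Without guides it was -0.40 with VP64 (SE 0.110, adjusted p = 0.00471) and -0.48 with p65 (SE 0.110, adjusted p = 0.000959). The guide effect was -0.34 with p65 (SE 0.119, adjusted p = 0.0258) and -0.13 with VP64 (adjusted p = 0.424). The p65 guide call was lost without replicate B (-0.33) or C (-0.31) of the line with guides, without B (-0.28) or C (-0.29) of the line without, in DESeq2 (-0.33), with only the libraries compared (-0.33) and with no low-count filter.

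MED28 had 40.2, 32.8 and 33.2 CPM in the VP64 line with guides, against 39.3, 39.8 and 39.9 CPM without, and these groups overlapped. It had 37.6, 37.6 and 37.0 CPM in the p65 line with guides, against 44.1, 41.7 and 42.5 CPM without, and 36.9, 36.7 and 35.3 CPM without an activation domain. The log2 fold change with guides was -0.17 with VP64 (SE 0.0634, adjusted p = 0.0405) and -0.19 with p65 (SE 0.0617, adjusted p = 0.0162). The VP64 call was lost in 17 of 23 alternatives, namely when any 1 of 11 libraries was left out (-0.17 to -0.10), in the DESeq2 Wald test, with only the libraries compared, with either other filter on low counts, on TPM and with an effective-length offset, and the p65 call without replicate A of the line without guides (-0.16). With an effective-length offset the values were -0.05 and -0.17, and neither passed. Other tail calls were smaller. MED27 fell with p65 guides (-0.18, SE 0.0485, adjusted p = 0.00491), MED25, the VP16-binding subunit, rose with p65 guides (0.16, SE 0.0494, adjusted p = 0.0125), and MED29 rose with VP64 guides (0.17, SE 0.0593, adjusted p = 0.0275). The MED25 call was lost without replicate A (0.13) or B (0.14) of the p65 line with guides, and the MED29 call without replicate B of the VP64 line with guides (0.13) or C of the line without (0.17), with an effective-length offset (0.22) and on TPM (0.22). MED25 shares 18.7% of its exonic bases with the antisense gene PTOV1-AS1, which had 1 to 11 counts per library. MED23, a tail subunit that links Mediator to ELK and other signalling-dependent activators, was higher than without an activation domain in all 4 activator lines, by 0.20 to 0.31. The lowest of these, VP64 without guides, had adjusted p = 0.0499 and was lost in 12 of 23 alternatives: when any 1 of 8 libraries was left out (0.17 to 0.23), with the replicate block, in the DESeq2 Wald test, with an effective-length offset and on TPM. MED23 with p65 and guides (0.28) was lost without replicate C of that line (0.21).

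In the kinase module, 4 of 6 genes fell in each guide comparison, and none rose, against 21.3% (VP64) and 20.2% (p65) of all genes lower, or 28.2% and 26.9% of the genes at least as abundant as the lowest member. MED13, which anchors the kinase to the core (chr17:61942605-62065282, minus strand, hg38), had 160, 187 and 190 CPM in the VP64 line with guides, against 206, 213 and 203 CPM without. It had 189, 172 and 184 CPM in the p65 line with guides, against 234, 227 and 198 CPM without, and 149, 149 and 146 CPM without an activation domain. The 3 levels were in the same order in both arms, highest without guides, then with guides, then without a domain, and the groups did not overlap. Against no activation domain, the lines without guides differed by 0.48 with VP64 (SE 0.0601, adjusted p = 8.05e-07) and 0.57 with p65 (SE 0.0600, adjusted p = 7.03e-08). Its log2 fold change with guides was -0.21 with VP64 (SE 0.0600, adjusted p = 0.00738) and -0.27 with p65 (SE 0.0597, adjusted p = 0.00089). The VP64 guide call was lost without replicate A of the line with guides (-0.12). With an effective-length offset the guide effects were -0.02 and -0.21, and on TPM -0.04 and -0.22, and none of these passed.

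MED13L, the paralog that can take the place of MED13 (chr12:115953872-116277719, minus strand, hg38), had 66.0, 67.3 and 79.6 CPM in the VP64 line with guides, against 95, 97.8 and 102 CPM without. It had 74.2, 71.7 and 70.7 CPM in the p65 line with guides, against 103, 103 and 97.6 CPM without, and 86.1, 86.8 and 79.0 CPM without an activation domain. In both arms the lines without guides were highest. The guide effect was -0.47 with VP64 (SE 0.0584, adjusted p = 1.03e-06) and -0.49 with p65 (SE 0.0576, adjusted p = 6.31e-07), the largest fall of a member with p65. Against no activation domain MED13L was higher without guides (0.23 with VP64, adjusted p = 0.00202, and 0.27 with p65, adjusted p = 0.000381) and lower with guides (-0.24 with VP64, adjusted p = 0.00134, and -0.22 with p65, adjusted p = 0.00328). With an effective-length offset the VP64 line without guides (0.20) and the p65 line with guides (-0.23) no longer passed. On TPM neither VP64 line passed (0.22 without guides and -0.24 with guides), nor did the p65 line with guides (-0.20). The log2 ratio of MED13 to MED13L on TPM was 0.86 ± 0.154 with VP64 and guides against 0.42 ± 0.126 without, 0.73 ± 0.0897 with p65 and guides against 0.40 ± 0.163 without, and 0.19 ± 0.189 without an activation domain (SD, n = 3).

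CDK8, one of the module's alternative kinases, had 26.7, 24.0 and 27.2 CPM in the VP64 line with guides, against 30.7, 30.9 and 35.1 CPM without. It had 28.4, 27.7 and 27.3 CPM in the p65 line with guides, against 33.8, 35.1 and 31.4 CPM without, and 31.3, 29.9 and 33.2 CPM without an activation domain. The lines with guides were below all others. The log2 fold change with guides was -0.31 with VP64 (SE 0.0699, adjusted p = 0.000942) and -0.26 with p65 (SE 0.0680, adjusted p = 0.00355). CCNC, which encodes cyclin C, the partner of the kinase, had 73.1, 64.9 and 60.3 CPM in the VP64 line with guides, against 77.6, 81.9 and 80.0 CPM without. It had 66.5, 70.8 and 79.6 CPM in the p65 line with guides, against 88.3, 79.7 and 81.4 CPM without, and 79.3, 79.3 and 84.2 CPM without an activation domain. With p65 the groups nearly touched, at 79.6 CPM with guides and 79.7 CPM without. The guide effect on CCNC was -0.27 with VP64 (SE 0.0660, adjusted p = 0.00196) and -0.20 with p65 (SE 0.0647, adjusted p = 0.0175). The p65 call of CCNC was lost without replicate A (-0.14) or B (-0.18) of the line with guides or A (-0.14) of the line without, and with an effective-length offset both CCNC calls were lost (-0.21 and -0.22). CDK19, the other kinase, had 23.8, 24.4 and 26.0 CPM in the VP64 line with guides, against 19.2, 22.0 and 22.4 CPM without. It had 19.6, 22.9 and 18.1 CPM in the p65 line with guides, against 21.6, 19.4 and 19.7 CPM without, and 21.8, 25.5 and 21.5 CPM without an activation domain. The VP64 groups did not overlap, yet the guide effect of 0.22 missed the threshold (SE 0.0895, adjusted p = 0.0531). MED12, which activates the kinase, passed in no comparison.

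Of the 4 acetyltransferase genes, CREBBP and KAT2B rose without guides against no activation domain in both arms. Of all genes, 23.6% rose there with VP64 and 24.7% with p65. CREBBP, the CBP protein (chr16:3725054-3880726, minus strand, hg38), had 78.2, 76.8 and 91.6 CPM in the VP64 line with guides, against 103, 104 and 106 CPM without. It had 83.3, 79.6 and 82.8 CPM in the p65 line with guides, against 109, 117 and 104 CPM without, and 67.7, 69.3 and 62.8 CPM without an activation domain. In both arms the order was that of MED13, with no overlap between groups. The rise against no activation domain was the largest of any member, with log2 fold changes of 0.65 with VP64 without guides (SE 0.0581, adjusted p = 7.33e-09) and 0.73 with p65 without guides (SE 0.0578, adjusted p = 9.9e-10). With guides CREBBP was still higher than without a domain, by 0.30 in both arms (adjusted p = 0.000175 with VP64 and 0.000176 with p65). Its log2 fold change with guides was -0.34 with VP64 (SE 0.0581, adjusted p = 5.47e-05) and -0.43 with p65 (SE 0.0574, adjusted p = 3.64e-06). These 6 CREBBP calls held in all 23 alternatives tried.

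EP300 had 12.2, 11.1 and 13.8 CPM in the VP64 line with guides, against 13.4, 14.6 and 14 CPM without. It had 13.4, 10.6 and 11.4 CPM in the p65 line with guides, against 17.1, 16.4 and 12.9 CPM without, and 14.3, 17.9 and 13.7 CPM without an activation domain. The groups overlapped in both pairs. The guide effect was -0.38 with p65 (SE 0.122, adjusted p = 0.015) and -0.18 with VP64 (adjusted p = 0.259). The p65 call was lost without replicate B of the line with guides (-0.32), without A (-0.29) or B (-0.34) of the line without, with an effective-length offset (-0.17) and on TPM (-0.13). KAT2A, the GCN5 acetyltransferase of SAGA, had 43.7, 45.8 and 47.1 CPM in the VP64 line with guides, against 51.2, 54.2 and 53.9 CPM without. It had 53.5, 53.3 and 55.7 CPM in the p65 line with guides, against 52.4, 51.6 and 55.5 CPM without, and 49.1, 52.5 and 51.6 CPM without an activation domain. The 3 libraries of the VP64 line with guides were below all 12 others (guide effect -0.22, SE 0.0508, adjusted p = 0.00133, against 0.03 with p65, adjusted p = 0.706). Its paralog KAT2B, or PCAF, was higher than without an activation domain in all 4 activator lines, with log2 fold changes of 0.20 to 0.39. The lowest of these, p65 with guides, was lost when any 1 of 5 libraries was left out (0.18 to 0.22), with an effective-length offset (0.21) and on TPM (0.20).

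TRRAP, the activator-binding scaffold (chr7:98877933-99050831, plus strand, hg38), had 72.5, 76.1 and 88.4 CPM in the VP64 line with guides, against 120, 116 and 116 CPM without. It had 90.6, 87.2 and 87.0 CPM in the p65 line with guides, against 128, 122 and 121 CPM without, and 85.2, 83.1 and 75 CPM without an activation domain. The 6 libraries with an activation domain and no guides stood above all 9 others. The log2 fold change with guides was -0.57 with VP64 (SE 0.0582, adjusted p = 7.32e-08), the largest fall of a member there, and -0.48 with p65 (SE 0.0571, adjusted p = 6.67e-07). Against no activation domain, the lines without guides differed by 0.53 with VP64 (SE 0.0573, adjusted p = 1.04e-07) and 0.61 with p65 (SE 0.0570, adjusted p = 1.32e-08). With guides the difference was -0.04 with VP64 (SE 0.0591, adjusted p = 0.629) and 0.12 with p65 (SE 0.0583, adjusted p = 0.0793). TRRAP shares 3.68% of its exonic bases with the antisense gene SMURF1, which had log2 fold changes of -0.28 and -0.22 with guides and 0.33 and 0.38 without guides against no domain.

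**Figure D4:**
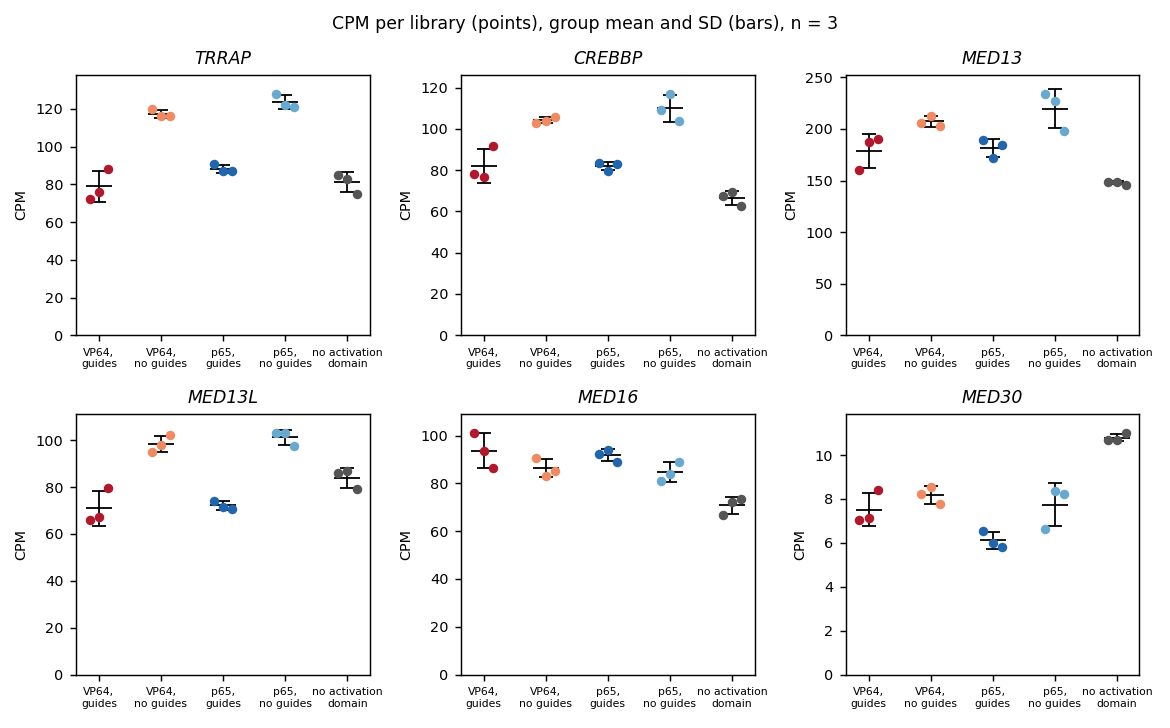
CPM of 6 members in each library (points), with the mean and SD of each group (black bars, n = 3). TRRAP, CREBBP, MED13 and MED13L are highest in the lines with an activation domain and no guides, MED16 is lowest and MED30 highest in the line without an activation domain.

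The BET genes differed from each other. BRD2 (chr6:32968660-32981505, plus strand, hg38) had 145, 151 and 158 CPM in the VP64 line with guides, against 166, 173 and 168 CPM without. It had 159, 144 and 156 CPM in the p65 line with guides, against 169, 169 and 175 CPM without, and 190, 175 and 189 CPM without an activation domain. Levels were lowest with guides and highest without a domain, with p65 replicate C without guides and replicate B without a domain both at 175 CPM. Its log2 fold change with guides was -0.16 in both arms (VP64 SE 0.0450, adjusted p = 0.00685, and p65 SE 0.0448, adjusted p = 0.00635). Against no activation domain, BRD2 differed by -0.29 and -0.27 with guides (adjusted p = 1.24e-05 with VP64 and 2.12e-05 with p65). Without guides it differed by -0.13 with VP64 (adjusted p = 0.0224) and -0.11 with p65 (adjusted p = 0.0413). The VP64 guide call was lost without replicate A of the line with guides (-0.12) or B of the line without (-0.13), and the p65 one without replicate B with guides (-0.12), with an effective-length offset (-0.16) and on TPM (-0.17). Without guides the calls were lost when any 1 of 4 libraries was left out with VP64 (-0.12 to -0.10) or any 1 of 8 with p65 (-0.11 to -0.08). With an effective-length offset those 2 values were -0.05 and -0.06. BRD2 shares 8.61% of its exonic bases with antisense genes, among them HLA-DMA. HLA-DMA had log2 fold changes of 0.88 and 0.61 with VP64 and p65 guides, and -0.45 and -0.32 without guides against no domain. With guides against no domain HLA-DMA differed by 0.42 and 0.29. BRD3, the related BET protein that binds acetylated GATA1, had 38.3, 40.4 and 38.6 CPM in the VP64 line with guides, against 28.9, 33.7 and 33.4 CPM without. It had 38.9, 35.9 and 32.9 CPM in the p65 line with guides, against 32.1, 32.1 and 33.5 CPM without, and 34.1, 32.2 and 34.2 CPM without an activation domain. BRD3 had the largest rise of a member with VP64 guides (0.29, SE 0.0674, adjusted p = 0.00138), and did not pass with p65 (0.14, adjusted p = 0.111). With an effective-length offset (0.26) and on TPM (0.24) the VP64 call was lost, and 18.6% of BRD3's exonic bases are shared with antisense BRD3OS, whose guide effect was -0.09 with VP64. On TPM, BRD2 exceeded BRD3 by 9.31 times in the VP64 line with guides and 13.0 times in the line without.

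The guide effects of the 2 arms were measured in different libraries. Over the 39 members they had the same sign for 32 (82.1%), with Pearson's r = 0.737 and Spearman's rho = 0.822. Over all 14961 genes the sign was the same for 79.4%, with r = 0.609 and rho = 0.684. These are descriptions across genes, which share libraries and are not independent replicates. The difference between the guide effects (p65 minus VP64) passed for no member in edgeR, DESeq2 or limma, against 0.769% of all genes higher and 0.187% lower in edgeR. At an unadjusted p under 0.05 there were 3, namely KAT2A (0.25, 95% interval 0.11 to 0.39, adjusted p = 0.107), MED11 (0.66, interval 0.12 to 1.20, adjusted p = 0.347) and MED10 (0.19, interval 0.02 to 0.37, adjusted p = 0.402).

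**Figure D5:**
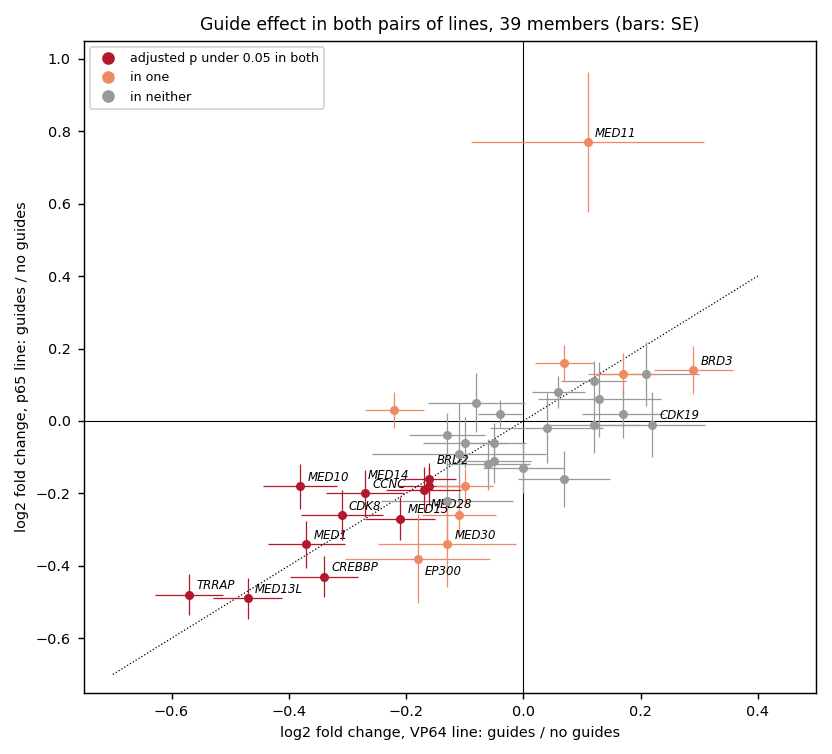
log2 fold change of guides over no guides in the p65 pair (vertical axis) against the VP64 pair (horizontal axis) for the 39 members, with SE bars; the dotted line marks equal values. The 11 members called in both lie in the lower left, and MED11 stands apart at 0.11 with VP64 and 0.77 with p65.

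Nanobody-p65 against nanobody-VP64 compares lines that differ in the second activation domain, each again 1 line. Without guides no member passed in edgeR, DESeq2 or limma, against 0.388% of all genes higher and 1.72% lower in edgeR. The only member at an unadjusted p under 0.05 was MED12 (0.20, SE 0.0690, adjusted p = 0.167). With guides, 1 member rose and 1 fell, against 3.72% of all genes higher and 4.2% lower, shares near those of the members. KAT2A rose (0.25, SE 0.0509, adjusted p = 0.00275) and CDK19 fell (-0.30, SE 0.0905, adjusted p = 0.0462). KAT2A missed the threshold on TPM (0.22, adjusted p = 0.0506). The CDK19 call was lost when any 1 of 9 libraries was left out (-0.33 to -0.22), with the DESeq2 test (-0.29) and under 5 other settings, 15 of the 23 alternatives in all.

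With guides against no activation domain, where the activator and the guides differ at once, 7 members rose and 12 fell with VP64, against 26.0% of all genes higher and 27.1% lower. With p65, 6 rose and 12 fell, against 25.8% higher and 27.5% lower. Among the 10689 genes at least as abundant as the lowest member, 31.1% rose and 32.9% fell in each arm. The 30.8% of members that fell in each arm is near these shares, and the 17.9% (VP64) and 15.4% (p65) that rose are below them. With p65 the excess of falls over rises was not stable, with 8 rises and 9 falls under DESeq2 size factors, 7 rises and 8 falls in the DESeq2 Wald test, 10 of each without replicate A of the VP64 line with guides, 7 of each without replicate A of the line without an activation domain, and 6 rises and 7 falls without its replicate B or C. Against that one control line, MED13, MED16, MED23, CREBBP and KAT2B passed as higher and MED30 and BRD2 as lower in each of the 4 activator lines, which all share it. EP300 fell with guides in both arms (-0.31 with VP64, adjusted p = 0.0354, and -0.37 with p65, adjusted p = 0.0128). Without replicate B of the line without an activation domain these were -0.16 and -0.23, and neither passed. EP300 was also lost without VP64 replicate A (-0.29) or B (-0.21) and without p65 replicate B (-0.31). A total of 10 members passed in none of the 9 comparisons: MED4, MED6, MED7, MED8, MED12, MED15, MED21, MED24, MED26 and MED31. No share of all genes was counted for this list, or for the members that passed in each of the 4 activator lines.

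Genes of the machinery that Mediator and TRRAP work with were counted from lists of general factors and other cofactors, 118 genes in all. With guides 42 of them fell and 11 rose with VP64 (35.6% and 9.32%), and 44 fell and 11 rose with p65 (37.3% and 9.32%), against 21.3% and 20.2% of all genes lower and 28.2% and 26.9% of the genes at least as abundant as the lowest member. The shares that rose compare with 19.3% and 18.7% of all genes. The lists were chosen with earlier results of these data known, so the counts are descriptions and not a test. Of 12 subunits of RNA polymerase II, 6 fell with VP64 and 5 with p65, and none rose, numbers too small to read against those shares. POLR2A, the catalytic subunit, fell by 0.26 with VP64 (SE 0.0459, adjusted p = 0.000108) and by 0.31 with p65 (SE 0.0457, adjusted p = 1.18e-05). Without guides POLR2A had been higher than without an activation domain, by 0.77 with VP64 (SE 0.0463, adjusted p = 1.54e-11) and 0.85 with p65 (SE 0.0462, adjusted p = 2.39e-12). EP400, the TIP60-complex ATPase and a partner of TRRAP, fell by 0.49 with VP64 guides (SE 0.0626, adjusted p = 1.44e-06) and by 0.45 with p65 guides (SE 0.0611, adjusted p = 3.9e-06). Of 13 SWI/SNF genes, 7 fell and 1 rose with VP64 guides, and 9 fell and none rose with p65. ARID1A fell by 0.48 (SE 0.07, adjusted p = 9.38e-06) and 0.42 (SE 0.0692, adjusted p = 4.46e-05). Elongation factors were mixed, with CDK9, the kinase of P-TEFb, higher with VP64 guides (0.27, SE 0.0536, adjusted p = 0.000373) and with p65 guides (0.33, SE 0.0534, adjusted p = 3.6e-05). Of 15 SAGA genes, 3 rose and 4 fell with VP64 guides and 2 rose and 3 fell with p65.

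The 11 members that fell in both guide comparisons had the longer transcripts on the median. Their median effective length was 4447 bases, against 2046 bases for the other 28, with TRRAP, CREBBP and MED13 the longest. Their median level was 24.8 TPM, against 19.2 TPM. The part of transcript length in the result was not tested. The effective-length offset cannot decide it, since it scales each gene's lengths to that gene's own mean over libraries.

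Promoters are shown for CREBBP, MED13L and MED1, which with TRRAP and MED13 fell in both guide comparisons and rose without guides against no domain in both arms, and for MED16, which rose in all 4 activator lines against that control line. Each window runs from 250 bases before to 50 bases after a transcript start, from RefSeq on GRCh38.p14, read 5′ to 3′ on the minus strand, which is the strand of all 4 genes. The windows are chr16:3880664-3880963 for CREBBP (the first of 2), chr12:116277644-116277943 for MED13L, chr17:39451214-39451513 for MED1 and chr19:893138-893437 for MED16. Capitals mark matches on either strand to 8 motifs. The GC box, bound by SP1 and its relatives, was searched as GGGCGG. The box bound by NF-Y was searched as CCAAT. The motif of the ETS family of factors was searched as CCGGAAG. The cyclic AMP response element, or CRE, was searched as TGACGTCA. The E-box, bound by MYC and USF proteins, was searched as CACGTG. The TATA box, bound by the TATA-binding protein, was searched as TATAAA. The NRF1 and kappaB motifs are given by name alone. Matches may overlap.
CREBBP: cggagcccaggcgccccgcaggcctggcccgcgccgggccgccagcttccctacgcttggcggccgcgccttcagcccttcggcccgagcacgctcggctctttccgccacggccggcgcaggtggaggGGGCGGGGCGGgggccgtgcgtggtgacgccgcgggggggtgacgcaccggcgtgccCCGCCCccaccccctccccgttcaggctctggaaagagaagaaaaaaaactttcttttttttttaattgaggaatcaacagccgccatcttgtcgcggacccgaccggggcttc
MED13L: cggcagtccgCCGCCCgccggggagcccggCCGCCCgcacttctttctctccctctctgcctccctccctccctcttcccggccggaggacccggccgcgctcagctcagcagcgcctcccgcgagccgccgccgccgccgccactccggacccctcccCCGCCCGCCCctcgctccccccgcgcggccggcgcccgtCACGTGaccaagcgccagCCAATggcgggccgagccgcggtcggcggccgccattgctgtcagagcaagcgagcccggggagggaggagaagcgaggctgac
MED1: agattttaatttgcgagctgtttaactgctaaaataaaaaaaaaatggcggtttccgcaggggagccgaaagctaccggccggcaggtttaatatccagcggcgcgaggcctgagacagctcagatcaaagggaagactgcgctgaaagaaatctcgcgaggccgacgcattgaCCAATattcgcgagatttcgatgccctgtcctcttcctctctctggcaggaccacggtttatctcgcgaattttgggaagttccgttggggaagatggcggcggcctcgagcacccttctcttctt
MED16: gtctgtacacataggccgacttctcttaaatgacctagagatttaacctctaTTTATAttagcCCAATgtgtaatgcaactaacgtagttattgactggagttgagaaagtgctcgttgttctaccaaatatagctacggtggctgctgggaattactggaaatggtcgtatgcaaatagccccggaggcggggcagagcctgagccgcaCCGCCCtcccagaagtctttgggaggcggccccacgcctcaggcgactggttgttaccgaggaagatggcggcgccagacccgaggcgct
CREBBP had 3 GC-box matches and a GC content of 70.3%, and MED13L had 4 GC-box matches, 1 CCAAT box and 1 E-box at 78.3% GC. MED1 had 1 CCAAT box and no other match at 52.0% GC, and MED16 had 1 GC box, 1 CCAAT box and 1 TATA box at 52.7% GC. The 4 windows thus share no single motif of those searched.

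Over the 30 members with an entry there were 39 windows of 300 bases, and 35116 windows for all genes. The GC box occurred in 64.1% of member windows and 45% of all windows, the ETS motif in 20.5% and 10.3%, and the NRF1 motif in 15.4% and 8.32%. The CCAAT box occurred in 25.6% and 34.6%, the TATA box in 5.13% and 11.5%, the E-box in 5.13% and 7.26%, CRE in 2.56% and 1.85%, and the kappaB motif in 7.69% and 5.91%. Median GC content was 61.7% in member windows and 58.7% in all windows. No test was made, and a match is a run of letters, not a bound site.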

How the data were processed

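Each deposited table gives the expected count of every gene, as RSEM writes it, per the file headers. Reads had been aligned to hg38, with STAR and RSEM named as tools, per the submitters' processing notes. TPM values in the same deposited tables are length-scaled, per the file headers. The tables also hold the other deposited quantity used, each gene's effective length in bases, per the file headers. Tool versions, the settings and the strandedness of the libraries were not given in the sources used here.

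Expected counts were rounded and tested with edgeR 4.0.16 (R 4.3.3), using its quasi-likelihood method, a term for each line, all 15 libraries, TMM factors of 0.983 to 1.01 and filterByExpr at a minimum count of 10, which left 14961 genes. A further 92 spike-in entries were left out. Each of 9 comparisons was adjusted by Benjamini-Hochberg over all tested genes, at 0.05. The biological coefficient of variation was 5.45%. Expected counts of 15643705 to 23072512 per library leave the lowest members at 47 or more counts. CPM used TMM-scaled counts. Motifs were searched in RefSeq promoter windows.

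Values in every library are given for members called in both guide comparisons, for the largest called rise and fall in each comparison, and for the highest and lowest mean TPM. Of each companion list at most 3 genes with the smallest p are named. The members and lists were chosen with earlier results of these data known. Alternatives were DESeq2 size factors, no low-count filter, a mean of at least 1 CPM, a fit of the compared libraries alone, a replicate block by letter, an effective-length offset, limma 3.58.1 on log2(TPM + 1), the Wald test of DESeq2 1.42.0, and leaving out each library. The fits were tested on simulated data.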

Additional observations from a re-analysis of the deposited data

How the results depend on the processing

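Of 98 called member values, 46 kept direction and call in all 23 alternatives, 52 lost the call in at least 1, and 0 reversed. The effective-length offset kept 58 calls and limma on log2(TPM + 1) kept 59, and the other alternatives kept 83 to 94. Members called with VP64 guides numbered 14, against 9 under each of those 2 settings. With p65 guides there were 17, and 11 to 18 when 1 library was left out. For VP64 without guides against no activation domain there were 12, and 7 with the offset. With guides against no domain there were 19 for VP64 (12 with the offset, 11 with limma) and 18 for p65 (10 with the offset, 9 with limma). For p65 against VP64 with guides there were 2, and 1 with DESeq2 size factors, only the libraries compared, the replicate block, the offset or the DESeq2 Wald test, 0 with limma, and 1 to 2 when 1 library was left out. The cause was not tested, except that TPM and the offset bring in effective lengths, which vary between libraries. The labels do not say whether the replicate letters pair the libraries. Over 30 same-letter pairs r ran between -0.343 and 0.19, with 3 above 0.1, and over different-letter pairs between -0.269 and 0.339. These values show no sign of pairing, but do not settle whether the letters pair libraries. The replicate block kept 93 of the 98 calls. Of 253 values not called, 111 changed sign in at least 1 alternative. Expected counts carry RSEM's assignment error, and the SE was wide for some members with few counts, such as MED11 and MED30.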
